A study of Rattus norvegicus with 20 samples.

Results

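The core circadian clock genes described here were 5 of the 24059 gene IDs in the table of heart transcripts, all 5 of which were present and passed the filter on low counts that kept 14293 IDs. They were chosen by ID as genes of the clock, with earlier results of these data known. They were Arntl (ENSRNOG00000014448), Per1 (ENSRNOG00000007387), Per2 (ENSRNOG00000020254), Nr1d1 (ENSRNOG00000009329) and Dbp (ENSRNOG00000021027). The table holds no symbols, so the symbols are those under which the IDs were chosen and could not be checked against the data.

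RNA from heart ventricles of 20 male rats was sequenced, 1 library per rat and 5 rats in each of 4 groups. WT control rats were littermate controls without a disrupted Vegfb gene, and WT diabetic rats had received streptozotocin (STZ), a toxin of insulin-producing beta cells, at 55 mg/kg intravenously and were sampled on day 4 of diabetes. VegfbKO control and VegfbKO diabetic rats were handled likewise but carried a global disruption of Vegfb by a beta-galactosidase knock-in on a Sprague Dawley background. The sample titles give an age of 9 weeks, whereas the design text gives housing to 7 weeks. Light and dark alternated in cycles of 12 h, and no hour of collection is given in the sources used here, so the levels could not be compared with clock time. The total count per library ranged from 7220469 to 26664479 with a median of 20.7 M. The counts of the 5 genes ranged from 56, in the library with the lowest count of Per2, to 4170, in the library with the highest count of Dbp. A count of 56 carries a counting error of 13.4%.

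The clock is a feedback loop of transcription that runs in heart muscle as in most tissues. The protein made from Arntl (also called Bmal1) pairs with CLOCK and activates Per1, Per2, Nr1d1 and Dbp, the PER proteins hold that activation back, and the product of Nr1d1 represses Arntl, so that transcripts of Arntl peak at a time of day when those of the Per genes and Dbp are low. Dbp encodes an output factor that carries the rhythm to other genes.

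Promoter windows are shown, as a description of sequence alone, for the members in which a motif named below was found. RefSeq windows of 300 bases, from 250 before to 50 after the start of the gene on GRCr8, were at hand for 5 of 5 members, with Arntl listed as Bmal1 and with 2 windows for Nr1d1. The counts had been made on another build, mRatBN7.2. The motifs searched on both strands were the E-boxes CACGTG and CACGTT, the D-boxes TTATGTAA and TTACGTAA, the nuclear receptor half-site AGGTCA and the cAMP response element TGACGTCA. Capitals mark a match.

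Arntl, chr1:176766078-176766377, plus strand: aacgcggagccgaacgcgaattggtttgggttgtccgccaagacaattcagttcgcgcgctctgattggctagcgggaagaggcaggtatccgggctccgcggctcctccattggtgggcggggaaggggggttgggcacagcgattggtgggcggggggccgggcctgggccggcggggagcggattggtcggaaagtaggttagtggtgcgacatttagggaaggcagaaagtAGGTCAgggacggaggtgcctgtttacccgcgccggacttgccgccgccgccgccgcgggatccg
Per2, chr9:99496944-99497243, minus strand: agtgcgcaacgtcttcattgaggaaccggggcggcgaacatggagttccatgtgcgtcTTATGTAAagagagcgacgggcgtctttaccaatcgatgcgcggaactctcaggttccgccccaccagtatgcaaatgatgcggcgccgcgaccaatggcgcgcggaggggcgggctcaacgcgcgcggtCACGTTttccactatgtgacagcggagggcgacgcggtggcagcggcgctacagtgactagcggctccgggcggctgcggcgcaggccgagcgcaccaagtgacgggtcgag
Nr1d1 first window, chr10:84229405-84229704, minus strand: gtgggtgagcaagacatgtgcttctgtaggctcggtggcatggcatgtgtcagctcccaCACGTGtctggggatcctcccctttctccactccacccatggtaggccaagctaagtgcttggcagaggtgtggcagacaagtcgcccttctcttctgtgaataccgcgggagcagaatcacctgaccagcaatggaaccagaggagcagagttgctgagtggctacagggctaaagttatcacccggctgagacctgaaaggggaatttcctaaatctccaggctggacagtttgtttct
Nr1d1 second window, chr10:84231763-84232062, minus strand: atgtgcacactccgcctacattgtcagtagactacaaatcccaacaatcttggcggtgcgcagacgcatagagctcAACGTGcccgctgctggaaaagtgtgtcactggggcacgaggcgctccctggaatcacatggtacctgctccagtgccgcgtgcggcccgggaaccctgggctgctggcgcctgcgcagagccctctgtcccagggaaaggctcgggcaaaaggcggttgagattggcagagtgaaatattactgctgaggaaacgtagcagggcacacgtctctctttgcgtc

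The Arntl window held AGGTCA starting 15 bases before the start site. The Per2 window held TTATGTAA at 192 bases and CACGTT at 62 bases before it. In Nr1d1, the first window held CACGTG at 191 bases before the start site, and the second held CACGTT on the reverse strand at 174 bases before it. For comparison, of all 33469 windows, 16.2% held AGGTCA, 6.42% CACGTG, 4.83% CACGTT, 1.83% TGACGTCA, 0.893% TTATGTAA and 0.120% TTACGTAA. The windows of Per1 and Dbp held none of these letter strings. A match is a description of the sequence and not a binding site.

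Before the results, 2 libraries stood apart. In WT diabetic rat 2 a single ID held 23.3% of the count and in VegfbKO diabetic rat 1 it held 25.5%, whereas in the other 18 libraries the most abundant ID held 8.03% to 13.3%. Their TMM factors were 0.729 and 0.693, against 0.935 to 1.17 in the others. TMM (trimmed mean of M values) scales libraries to each other over most genes, and levels are given as CPM, the count of a gene as a share of its TMM-scaled library. Values are listed in the order of rats 1 to 5 of a group. Because gene lengths were not used, levels are compared between rats and not between genes.

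Arntl, the activator of the loop, varied most over the 20 rats together. It was at 19.9, 15.8, 15.1, 3.04 and 5.55 CPM in the WT control rats and at 17.6, 7.53, 9.58, 4.27 and 3.44 CPM in the WT diabetic rats. It was at 22.5, 27.9, 14.2, 18.9 and 31.9 CPM in the VegfbKO control rats and at 21.6, 17.4, 3.92, 6.40 and 4.22 CPM in the VegfbKO diabetic rats. Every group but the VegfbKO controls held rats with high and rats with low Arntl, and the ranges overlapped in all 6 pairs of groups. The highest rat was 6.54 times the lowest among the WT controls, 5.11 times among the WT diabetic rats, 2.25 times among the VegfbKO controls and 5.50 times among the VegfbKO diabetic rats. In order, the mean was 8.49 ± 5.67 CPM (SD, n = 5) in WT diabetic, 10.7 ± 8.21 CPM (SD, n = 5) in VegfbKO diabetic, 11.9 ± 7.21 CPM (SD, n = 5) in WT control and 23.1 ± 7.04 CPM (SD, n = 5) in VegfbKO control rats. Neighbours in the lower part of this order differed by less than their SD. Within the VegfbKO controls Arntl varied less than Dbp and Per2, whose highest rats were 3.08 and 2.62 times the lowest.

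Per1 encodes a repressor of the loop. It was at 55.5, 35.8, 54.9, 72.8 and 117 CPM in WT control rats and at 47.3, 65.97, 42.6, 81.9 and 86.5 CPM in WT diabetic rats. It was at 31.8, 37.3, 41.99, 31.6 and 18.8 CPM in VegfbKO control rats and at 33.97, 43.8, 41.3, 55.2 and 53.96 CPM in VegfbKO diabetic rats. WT control rat 5 had the highest and VegfbKO control rat 5 the lowest level of the 20. The ranges overlapped in 5 of the 6 pairs of groups. The exception was WT diabetic against VegfbKO control rats, which differ in both genotype and treatment and whose nearest rats were at 42.6 and 41.99 CPM. The share of all genes without overlap between these groups was not counted, so the exception does not set Per1 apart. The means were 32.3 ± 8.71 CPM (SD, n = 5) in VegfbKO control, 45.7 ± 8.94 CPM (SD, n = 5) in VegfbKO diabetic, 64.9 ± 19.8 CPM (SD, n = 5) in WT diabetic and 67.1 ± 30.7 CPM (SD, n = 5) in WT control rats.

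Per2, the other repressor measured here, was at 13.6, 13.4, 20.8, 41.4 and 36.4 CPM in WT control rats and at 18.6, 35.6, 21.7, 37.2 and 45.3 CPM in WT diabetic rats. It was at 15.6, 10.8, 16.98, 15.999 and 6.49 CPM in VegfbKO control rats and at 11.2, 15.1, 38.5, 31.01 and 33.02 CPM in VegfbKO diabetic rats. The rats with the lowest Arntl of a group were those with the highest Per2 in WT control, WT diabetic, VegfbKO control and VegfbKO diabetic rats alike. The means were 13.2 ± 4.43 CPM (SD, n = 5) in VegfbKO control, 25.1 ± 13.02 CPM (SD, n = 5) in WT control, 25.8 ± 11.9 CPM (SD, n = 5) in VegfbKO diabetic and 31.7 ± 11.2 CPM (SD, n = 5) in WT diabetic rats. The ranges overlapped in 5 of the 6 pairs of groups, again with the exception of WT diabetic against VegfbKO control rats, whose nearest rats were at 18.6 and 16.98 CPM. As for Per1, the share of all genes without such overlap was not counted.

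Nr1d1, which encodes the nuclear receptor REV-ERB alpha, varied least over the 20 rats together. It was at 101, 116, 113, 107 and 101 CPM in WT control rats and at 115, 148, 123, 72.1 and 70.3 CPM in WT diabetic rats. It was at 109, 81.1, 123, 113 and 74.9 CPM in VegfbKO control rats and at 126, 95.6, 109.9, 115 and 105 CPM in VegfbKO diabetic rats. The 4 lowest levels came from WT diabetic rats 5 and 4, which had the lowest Arntl of their group, and from VegfbKO control rats 5 and 2, which had the highest Arntl of all 20 rats. The means lay between 100.2 ± 21.03 CPM (SD, n = 5) in VegfbKO control and 110.4 ± 11.6 CPM (SD, n = 5) in VegfbKO diabetic rats. The highest levels of the 20 were 148 CPM in WT diabetic rat 2 and 126 CPM in VegfbKO diabetic rat 1. These are the libraries that stood apart, with TMM factors of 0.729 and 0.693. Within WT diabetic rats, that library included, the SD of Nr1d1 was 31.9% of its mean, above 30.5% for Per1 and 30.6% for Dbp. The symbol of its ID, ENSRNOG00000009329, could not be checked, and this was the member whose pairs with the others did not pass (below). Whether the ID is that of Nr1d1 was not tested.

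Dbp, the output factor, was at 41.6, 52.3, 79.4, 147 and 148 CPM in WT control rats and at 39.2, 99.7, 98.7, 99.5 and 95.2 CPM in WT diabetic rats. It was at 44.4, 31.5, 84.4, 67.1 and 27.4 CPM in VegfbKO control rats and at 59.9, 70.3, 111.8, 125 and 135 CPM in VegfbKO diabetic rats. WT diabetic rat 1 lay far below the other 4 of its group, which were within 95.2 to 99.7 CPM, and it also had the highest Arntl of that group. The means were 50.95 ± 24.3 CPM (SD, n = 5) in VegfbKO control, 86.5 ± 26.5 CPM (SD, n = 5) in WT diabetic, 93.6 ± 51.01 CPM (SD, n = 5) in WT control and 100.4 ± 33.4 CPM (SD, n = 5) in VegfbKO diabetic rats, with overlap between the groups.

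**Figure D1:**
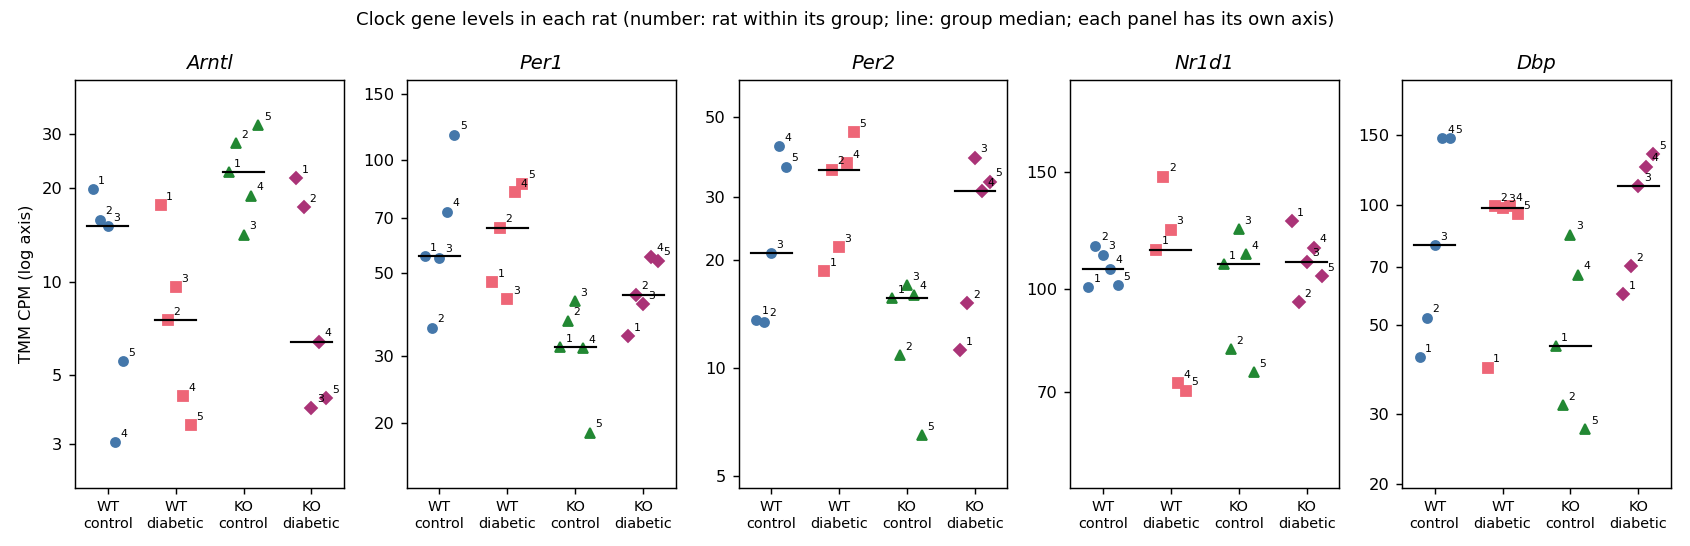
TMM-scaled CPM (log axis) of the 5 clock genes in each of the 20 rats by group, with KO for VegfbKO, the number of the rat beside its point and a line at the group median. Arntl spans 3.04 to 31.9 CPM and Nr1d1 only 70.3 to 148 CPM, and the ranges overlap in each panel but for WT diabetic against VegfbKO control in Per1 and Per2. The share of all genes without such overlap was not counted.

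The spread within groups was described by the SD of log2 CPM around the group means, with no test. It was 0.96 for Arntl, 0.67 for Per2, 0.67 for Dbp, 0.47 for Per1 and 0.30 for Nr1d1, against a median of 0.21 over the 14293 genes. Arntl lay at percentile 98.3 of these genes, Per2 at 93.2, Dbp at 93.1, Per1 at 84.1 and Nr1d1 at 69.3. Scaled by library totals alone, Nr1d1 came to percentile 50.1.

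The study asked how diabetes and loss of Vegfb change heart transcripts, and the same contrasts were read for the clock genes with edgeR's quasi-likelihood test over all 20 libraries. Calls required a p below 0.05 after Benjamini-Hochberg adjustment over all genes tested and a log2 fold change beyond 0.27 in either direction. By that rule 0 of the 5 clock genes were called for diabetes in WT rats, where 13.1% of all genes were called, and 0 of 5 for diabetes in VegfbKO rats, where 7.84% were. The counts were 0 of 5 between genotypes in controls, against 0.028% of all genes, and 0 of 5 between genotypes in diabetic rats, against 0.042%. That last share rests on 6 genes, which became 2 to 181 on leaving out 1 library (181 without WT diabetic rat 3) and 65 by DESeq2, and the 1121 genes behind 7.84% became 643 without VegfbKO diabetic rat 3. Over both genotypes together diabetes called 0 of 5, against 16.2%, and the interaction of genotype and diabetes called 0 of 5, against 0% of all genes by adjusted p alone. With 5 genes, 0 calls does not set the clock genes apart from these shares.

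At an unadjusted p under 0.05, edgeR's test gave 0 of 5 for diabetes in WT, 3 for diabetes in VegfbKO, 3 between genotypes in controls, 0 between genotypes in diabetic rats, 1 for diabetes over both genotypes and 0 for the interaction. The shares of all genes at that level were 27%, 21.4%, 3.69%, 8.99%, 34.8% and 4.2%. The members behind the counts of 3 moved together from rat to rat (below), and both counts use the same VegfbKO control rats. They are therefore not separate observations, and whether they exceed these shares was not tested. DESeq2 and edgeR's likelihood ratio test also called 0 of 5 in the 6 contrasts. The count was different by limma voom with weights for the quality of each library, which called 3 of 5 for diabetes in VegfbKO (Arntl, Per2 and Dbp), where it called 9.33% of all genes. It called 2 of 5 for diabetes over both genotypes (Arntl and Per2), where it called 18.4%, and 0 of 5 in the other 4 contrasts. In edgeR with the deviation of Arntl from its group mean as a covariate, a fit added after seeing the data, 2 of the other 4 were called for diabetes in VegfbKO (Per2 and Dbp), against 8.24% of all genes. That fit called 1 of 4 between genotypes in controls (Per2), against 0.049%, and 2 of 4 over both genotypes (Per2 and Dbp), against 16.5%. It takes out the variation within groups that a gene shares with Arntl but leaves differences between groups. Its p therefore does not measure the full spread between rats. With the level of Arntl as the covariate, also added after seeing the data, Per2 for diabetes in VegfbKO was -0.0091. Dbp over both genotypes was -0.037 with that level, and neither was called. The clock genes are therefore reported as not called, with calls in these 3 contrasts that depend on the tool or on the deviation of Arntl as a covariate.

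In VegfbKO rats, the log2 fold change of Arntl, diabetic against control, was -1.23 (95% interval -2.46 to -0.0019, edgeR adjusted p = 0.233). By limma voom this was -1.83 (adjusted p = 0.0176). Per2 differed by 1.01 (0.15 to 1.86, edgeR adjusted p = 0.152) and Dbp by 0.99 (0.12 to 1.85, edgeR adjusted p = 0.168), with adjusted p = 0.0437 and 0.0438 by limma voom. Arntl was thus opposite in sign to Per2 and Dbp, and the 3 intervals end close to 0. Per1 differed by 0.51 (-0.10 to 1.12) and Nr1d1 by 0.14 (-0.22 to 0.50), the last from 0.047 (without VegfbKO control rat 5) to 0.22 (without VegfbKO control rat 3) on leaving out 1 library.

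In WT rats the same contrast gave -0.48 for Arntl (-1.73 to 0.76), 0.31 for Per2 (-0.51 to 1.13), -0.12 for Dbp (-0.97 to 0.73), -0.06 for Per1 (-0.65 to 0.53) and -0.03 for Nr1d1 (-0.39 to 0.33). The edgeR adjusted p ranged from 0.652 for Arntl to 0.941 for Nr1d1. The 2 diabetes contrasts were not shown to differ for any of the 5 genes: the largest interaction in the main edgeR fit was 1.11 for Dbp (-0.11 to 2.32, edgeR adjusted p = 0.9998). By limma voom Arntl had the largest, at -1.37 against 1.32 for Dbp, and neither was called. The WT interval for Arntl includes 0 and values down to -1.73. Leaving out 1 library, the WT value for Arntl ranged from -0.91 (without WT diabetic rat 1) to -0.15 (without WT control rat 1), and that for Per2 from 0.14 (without WT diabetic rat 5) to 0.57 (without WT control rat 4). The direction turned for Per1 (-0.21 to 0.23), Nr1d1 (-0.18 to 0.087) and Dbp (-0.30 to 0.10).

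Between genotypes in control rats, Per1 differed by a log2 fold change, VegfbKO against WT, of -1.07 (-1.67 to -0.46, unadjusted p = 0.00168, edgeR adjusted p = 0.848 over all genes), and therefore not called. Per2 differed by -0.96 (-1.81 to -0.11), Dbp by -0.89 (-1.75 to -0.02) and Arntl by 1.00 (-0.20 to 2.19), with edgeR adjusted p = 0.9999 for each. Nr1d1 differed by -0.10 (-0.46 to 0.26, edgeR adjusted p = 0.9999), with a range of -0.19 to -0.013 on leaving out 1 library. The order of signs was again opposite for Arntl and for Per1, Per2 and Dbp. The contrasts share groups, since the VegfbKO controls, with the highest mean Arntl, enter this comparison and that of diabetes in VegfbKO. In diabetic rats the differences between genotypes were 0.25 for Arntl, -0.50 for Per1, -0.26 for Per2, 0.06 for Nr1d1 and 0.22 for Dbp, with intervals that include 0. Leaving out 1 library, Per2 ranged there from -0.44 (without VegfbKO diabetic rat 3) to -0.095 (without WT diabetic rat 5) and Dbp from 0.04 (without WT diabetic rat 1) to 0.35 (without VegfbKO diabetic rat 1). The direction turned for Arntl (-0.14 to 0.67) and for Nr1d1 (-0.054 to 0.22).

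**Figure D2:**
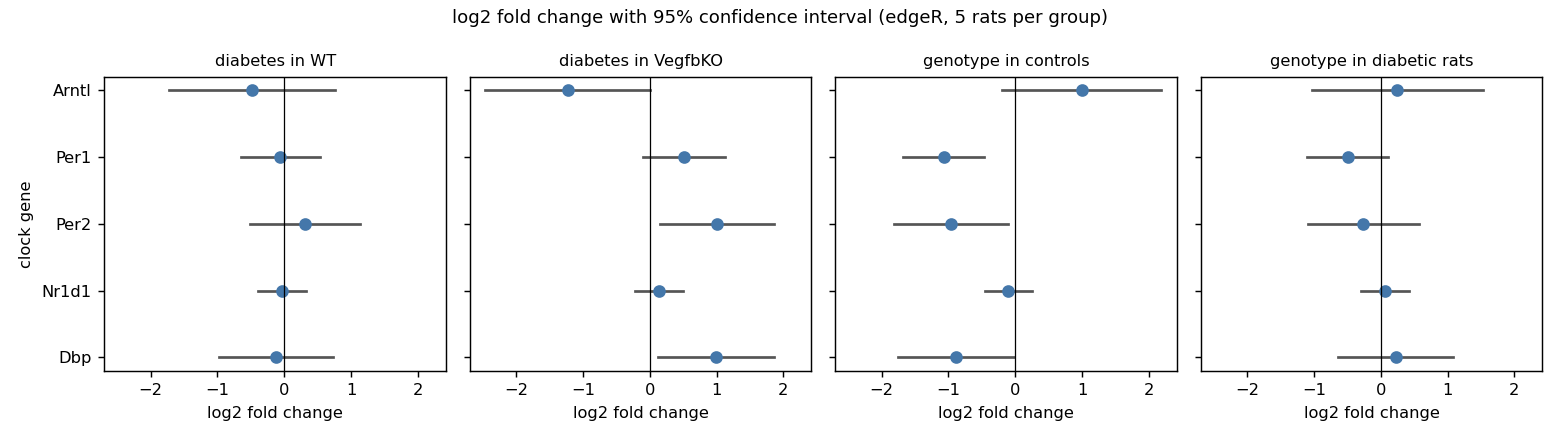
Log2 fold changes (points) of the 5 clock genes with 95% confidence intervals (lines) from edgeR in 4 contrasts, diabetic against control or VegfbKO against WT. The intervals for Arntl are the widest and those for Nr1d1 the narrowest, and 0 of the 20 fold changes was called.

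Whether the members moved together from rat to rat was read from log2 CPM with the group means subtracted, over 20 rats. The 10 pairs of genes were tested by 100000 permutations of rats within groups, two-sided, and p was adjusted over the 10 pairs. That adjustment does not cover the choice of the members, which was made with earlier results of these data known. Of the 10 pairs, 6 passed an adjusted p of 0.05 by Pearson's r and 6 by Spearman's rho. These 6 were the pairs of Arntl, Per1, Per2 and Dbp with each other, and the 4 pairs with Nr1d1 did not pass.

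Arntl and Per2 were the closest pair, with r = -0.93 and rho = -0.94, each with permutation p = 1e-05, the smallest that the permutations can give, and adjusted p = 0.0001. Of 40 pairs of rats from the same group, the rat with the higher Arntl had the lower Per2 in 39. It was so in 9 of 10 pairs of WT control rats and in 10 of 10 in each of the other 3 groups. Without the 2 rats farthest from the median of Arntl, r was -0.90.

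Arntl and Dbp followed with r = -0.84 (permutation p = 2e-05, adjusted p = 0.0001) and rho = -0.76 (p = 0.00027, adjusted p = 0.000933). The order of the rats was opposite in 33 of 40 pairs, 9 of 10 in WT control, 6 of 10 in WT diabetic, 10 of 10 in VegfbKO control and 8 of 10 in VegfbKO diabetic rats. Without the 2 farthest rats r was -0.81. Arntl and Per1 were related less closely, with r = -0.67 (permutation p = 0.00242, adjusted p = 0.00484) and rho = -0.71 (p = 0.00114, adjusted p = 0.00228). Here the order was opposite in 29 of 40 pairs and r was -0.68 without the 2 farthest rats.

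Per2 and Dbp rose and fell together, with r = 0.87 (permutation p = 3e-05, adjusted p = 0.0001) and rho = 0.80 (p = 0.00028, adjusted p = 0.000933), and the same order in 32 of 40 pairs of rats. Per1 and Per2 had r = 0.78 (p = 0.00026, adjusted p = 0.00065, permutation) and rho = 0.75 (p = 0.00047, adjusted p = 0.00117), with the same order in 30 of 40. Per1 and Dbp had r = 0.68 (p = 0.00327, adjusted p = 0.00545, permutation) and rho = 0.69 (p = 0.00233, adjusted p = 0.00388), with the same order in 28 of 40. Without the 2 rats farthest from the median of the first gene these were 0.85, 0.76 and 0.61.

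None of the 4 pairs with Nr1d1 passed over the 20 rats with group means subtracted. Its r was 0.20 with Arntl (permutation p = 0.385, adjusted p = 0.481, rho = 0.23, p = 0.314, adjusted p = 0.393) and -0.22 with Per1 (p = 0.374, adjusted p = 0.481, rho = -0.27, p = 0.287, adjusted p = 0.393). It was -0.02 with Per2 (permutation p = 0.913, rho = -0.10, p = 0.653, both the same after adjustment) and 0.16 with Dbp (p = 0.552, adjusted p = 0.613, rho = 0.20, p = 0.422, adjusted p = 0.469). Without the 2 rats farthest from the median of the first gene (Arntl, Per1, Per2 and, for Dbp, Nr1d1) these were 0.17, -0.19, -0.11 and 0.45. On leaving out 1 rat, r of Nr1d1 ranged from 0.069 to 0.28 with Arntl, from -0.45 to -0.099 with Per1 and from 0.045 to 0.26 with Dbp. Groups differed in the order of rats for Nr1d1: it was opposite to Arntl in 5 of 10 pairs of WT control rats, 3 of 10 of WT diabetic, 10 of 10 of VegfbKO control and 4 of 10 of VegfbKO diabetic rats, a difference that was not tested. In VegfbKO control rats it was opposite to Per2 in 0 of 10 pairs and to Dbp in 0 of 10, whereas in the other groups it was opposite to Per2 in 6 or 7 of 10 and to Dbp in 3 to 6 of 10.

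**Figure D3:**
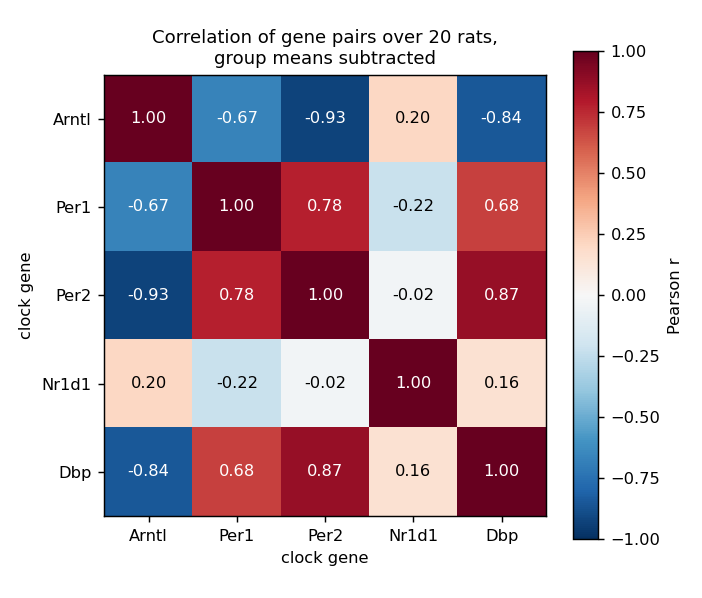
Pearson r of each pair of clock genes over 20 rats after subtracting group means, from -1 (blue) to 1 (red), with the value in each cell. Arntl is negative with Per1, Per2 and Dbp, which are positive with each other, and Nr1d1 lies between -0.22 and 0.20 with the other 4.

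The relation was read apart in controls and diabetic rats. Within the 10 control rats, Arntl and Per2 had r = -0.89 (permutation p = 0.00021, adjusted p = 0.00105) and rho = -0.89 (p = 0.0005, adjusted p = 0.005). Within the 10 diabetic rats they had r = -0.96 and rho = -0.99 (permutation p = 6e-05, adjusted p = 0.0006 for each), so this pair passed by both measures in control and in diabetic rats. Arntl and Dbp had r = -0.89 (permutation p = 0.00015, adjusted p = 0.00105) and rho = -0.85 (p = 0.0012, adjusted p = 0.006) in controls. In diabetic rats they had r = -0.84 (permutation p = 0.0122, adjusted p = 0.0401) but rho = -0.53 (p = 0.163, adjusted p = 0.192), so the pair passed there by r and not by rho. The same held for Per2 and Dbp in diabetic rats, with r = 0.81 (permutation p = 0.0101, adjusted p = 0.0401) and rho = 0.55 (p = 0.144, adjusted p = 0.192). For Arntl and Per1 (rho = -0.62) and Per1 and Per2 (rho = 0.61) the adjusted p for rho in diabetic rats was 0.188. The largest gap between neighbouring rats in Arntl took 16.7% of the range on the log2 scale, with 9 rats below and 11 above it, and whether the rats form clusters was not tested. After subtracting group means the largest gap in Arntl took 18.7% of the range and set 1 rat apart from 19.

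**Figure D4:**
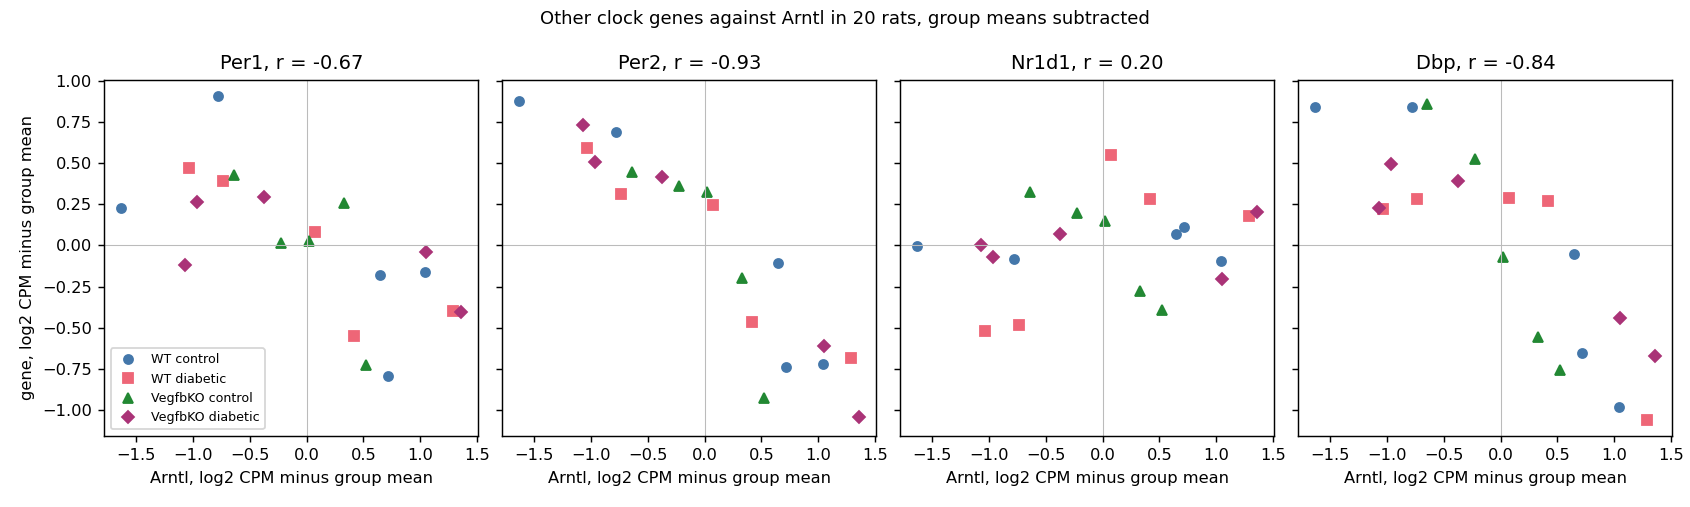
Log2 CPM of Per1, Per2, Nr1d1 and Dbp (vertical) against Arntl (horizontal), each minus its group mean, in 20 rats with a colour and shape for each group. Per2 falls along Arntl in every group (r = -0.93), and Dbp and Per1 fall with more scatter. Nr1d1 shows no such slope over the 20 rats (r = 0.20), though it is opposite to Arntl in 10 of 10 pairs of VegfbKO control rats.

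Fitted as a slope on Arntl within groups across all 14292 other genes by edgeR, 48 genes passed an adjusted p of 0.05, or 0.336%, of which 22 had a positive and 26 a negative slope. Of the other 4 clock genes, Per2 and Dbp passed, in the negative direction. Per2 changed by -0.64 on the log2 scale for each unit of log2 Arntl (95% interval -0.76 to -0.51, adjusted p = 2.1e-06) and Dbp by -0.59 (-0.79 to -0.39, adjusted p = 0.00694). Per1, at -0.33 (-0.52 to -0.15, adjusted p = 0.174), and Nr1d1, at 0.06 (-0.09 to 0.21, adjusted p = 0.833), did not pass.

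Among all 14292 genes ordered by r with Arntl, Per2 was number 2, Dbp number 13 and Per1 number 105 from the most negative, and Nr1d1 number 3671 from the most positive. An absolute r of at least 0.8 was reached by 33 genes, 13 positive and 20 negative. The genes most like Arntl by r, given as a description over 20 rats, were ENSRNOG00000013408 (r = 0.92) and ENSRNOG00000006019 (r = 0.87), and those most opposite, members left out, were ENSRNOG00000019383 (r = -0.98) and ENSRNOG00000018413 (r = -0.93). With Per2 these 4 had r of -0.89, -0.84, 0.95 and 0.94. ENSRNOG00000019383, the most opposite of all, spanned 5.76 to 7.22 log2 CPM over the 20 rats, a narrower range than that of Arntl.

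**Figure D5:**
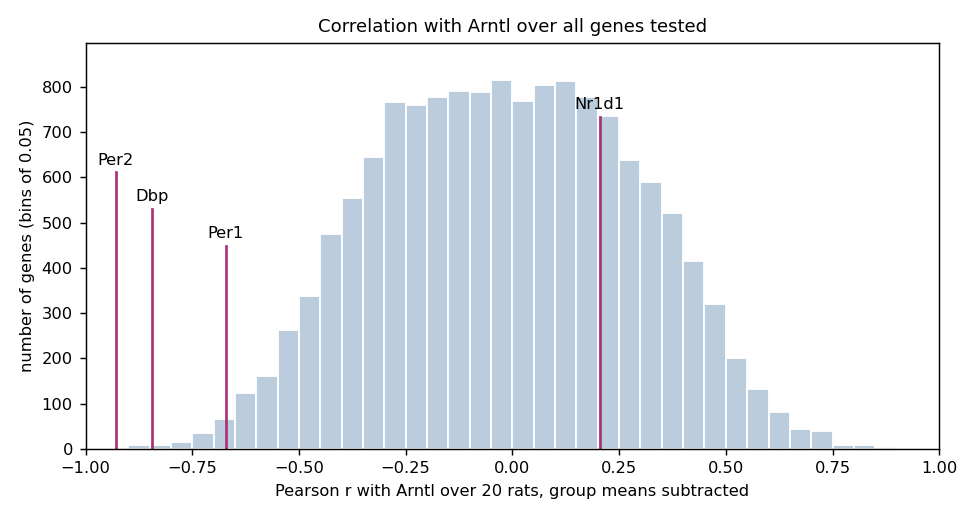
Number of genes (vertical) by Pearson r with Arntl (horizontal, bins of 0.05) over 20 rats after subtracting group means, for the 14292 other genes, with lines at 4 clock genes whose heights carry no value. Per2, Dbp and Per1 lie in the negative tail and Nr1d1 within the bulk.

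The difference between Dbp and Arntl in each rat, in log2 CPM, gathers the opposed levels into 1 value per rat and was not tested. It ran from -0.22 in VegfbKO control rat 5 to 5.55 in WT control rat 4. The mean was 3.09 ± 1.95 (SD, n = 5) in WT control, 3.49 ± 1.43 in WT diabetic, 1.06 ± 1.15 in VegfbKO control and 3.50 ± 1.64 in VegfbKO diabetic rats. The VegfbKO controls held the 3 lowest values, and their highest, 2.56, lay above that of 3 WT control, 1 WT diabetic and 2 VegfbKO diabetic rats, so the groups overlapped. In bulk tissue, fewer cells of a type and less RNA per cell cannot be told apart for any of these levels.

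The clock genes were also compared with the total count of the library. After subtracting group means, r with the log10 total was -0.55 for Arntl (permutation p = 0.0505, rho = -0.52, p = 0.0604), 0.50 for Per1 (p = 0.0534, rho = 0.32, p = 0.18) and 0.54 for Per2 (p = 0.038, rho = 0.51, p = 0.0545). It was 0.49 for Dbp (permutation p = 0.0408, rho = 0.37, p = 0.119) and -0.33 for Nr1d1 (p = 0.029, rho = -0.48, p = 0.00569). Over these 5 relations the adjusted p was 0.0534 for each r, and for rho it was 0.0284 for Nr1d1, 0.101 for Arntl and Per2, 0.148 for Dbp and 0.18 for Per1. Of the 5 genes, Nr1d1 alone passed 0.05, and by rho alone. Without the 2 libraries farthest from the median total, r was -0.42 for Arntl, 0.12 for Per1, 0.22 for Per2, 0.33 for Dbp and -0.33 for Nr1d1. With the total count removed from both genes, Arntl and Per2 had r = -0.90 and Arntl and Dbp r = -0.79, an alternative chosen after seeing the data.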

How the data were processed

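Ventricular RNA of 20 rats was measured, and groups were taken from sample titles. The authors prepared directional paired-end libraries and quantified reads per gene on mRatBN7.2, and the submitters' processing notes name kallisto, edgeR and DESeq2 without versions. The deposited values are estimated counts. Of 337138 nonzero values 0 were whole, yet 59.9% of those from 0.5 to 8 were near-whole (tolerance 0.05), the 20 column totals were whole within 0.01, and values near 1 were off by a small factor that differed by gene and library. Counts scaled by transcript length have this form, but no source used here states such a step. A value is therefore not exactly a number of reads. Values were rounded to whole numbers.

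Counts were fitted in edgeR 4.0.16 (R 4.3.3) with filterByExpr, TMM and robust quasi-likelihood over 4 group means. Log2 CPM used a prior count of 2. Permutations, spread and motif searches used Python 3.11.15 with numpy 2.4.6, and figures matplotlib 3.10.9. The code was tested on simulated data. Alternatives used DESeq2 1.42.0, limma 3.58.1, other scalings, filters and sets of libraries, and some were chosen after seeing the data: Arntl or the total count as a covariate, and the relations to total count. No pair of libraries in a group agreed within sampling noise (chi-square per gene at least 5.94).

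The members and lists were chosen with earlier results of these data known. The named genes are the 5 members and, by ID, the 2 highest and 2 lowest r with Arntl. The RefSeq table of 47357 genes gives an Ensembl ID for 0, so cell type markers, the tissue's defining markers, other clock genes and Vegfb itself were not looked up here.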

Additional observations from a re-analysis of the deposited data

Results flagged for a closer look

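In WT diabetic rats, Dbp was at 39.2 CPM in rat 1, whereas the nearest of the other 4 was at 95.2 CPM. The gap took 0.925 of the range of the group, above the critical value of 0.710 for 5 samples. The same rat had the highest Arntl (17.6 CPM) and the lowest Per2 (18.6 CPM) of its group. Of 24 groups of values tested in this way 1 stood out, where chance gives about 1.2.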

How the results depend on the processing

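With each library left out in turn, 0 of 5 clock genes were called in each of the 6 contrasts, and 6 of 10 pairs of genes passed by r. By limma voom 3 of 5 were called for diabetes in VegfbKO, against 9.33% of all genes, and 2 of 5 over both genotypes, against 18.4%. With the deviation of Arntl from its group mean as a covariate, added after seeing the data, 2 of the other 4 were called for diabetes in VegfbKO, against 8.24%. That fit called 1 between genotypes in controls, against 0.049%, and 2 over both genotypes, against 16.5%, and Dbp for diabetes in WT turned to 0.000663. The level of Arntl as a covariate, also added, takes out any difference between groups in Arntl and turned Per2 for diabetes in VegfbKO (-0.0091), Per1 (-0.072) and Dbp (-0.037) over both genotypes and Per2 in the interaction (-0.14). Without the 2 libraries that stand apart, Arntl between genotypes in diabetic rats was -0.068 and Nr1d1 over both genotypes -0.053. None of the fold changes that turned was called.

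Leaving out 1 library, ranges of log2 fold changes that crossed 0 were -0.21 to 0.23 (Per1), -0.18 to 0.087 (Nr1d1) and -0.30 to 0.10 (Dbp) for diabetes in WT, -0.14 to 0.67 (Arntl) and -0.054 to 0.22 (Nr1d1) between genotypes in diabetic rats, and -0.023 to 0.11 (Nr1d1) over both genotypes.

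Within the 10 control rats, r was -0.66 for Arntl and Per1 (permutation, adjusted p = 0.121, but rho = -0.77 with adjusted p = 0.0464) and 0.73 for Per1 and Dbp (adjusted p = 0.0573), and within the 10 diabetic rats 0.59 for Per1 and Dbp (adjusted p = 0.138), so these did not pass by r with fewer rats, while Arntl and Per1 in controls passed by rho. Pairs with Nr1d1 changed sign: in controls r was -0.28 with Arntl, 0.20 with Per1 and 0.48 with Per2, in diabetic rats -0.17 with Dbp, by library totals alone 0.055 with Per1 and 0.26 with Per2, without the 2 libraries 0.0070 with Per2, and with the total count removed 0.20 with Per2. Leaving out 1 rat, Per2 and Nr1d1 ranged from -0.19 to 0.11. The cause was not tested. By library totals alone ENSRNOG00000019383 had r = -0.83 and ENSRNOG00000018413 r = -0.88 with Arntl.

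The same replicate numbers occur in each group. Of 30 same-number comparisons over all genes 10 had r over 0.1 (-0.257 to 0.264), and in 16 of 60 a rat was closest to its own number (7 of 10 for WT control with VegfbKO diabetic), so by the rule that every r be over 0.1 the numbers do not pair the rats. Mean r was 0.0889 to 0.0944 for the same and -0.0235 to -0.021 for other numbers in the 3 pairs of groups without WT diabetic, and -0.0588 to -0.0151 and 0.0108 to 0.0141 in the 3 with it. With the replicate block 0 of 5 genes were called in each contrast, r of Arntl and Per2 was -0.90, the pairs of Nr1d1 had r of -0.088 with Arntl, 0.22 with Per2 and 0.55 with Dbp (adjusted p = 0.0239), and 7 of 10 pairs passed by r and 6 by rho, by which Per1 and Dbp did not (rho = 0.55, adjusted p = 0.055).

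Of all genes, library totals alone called 687 for diabetes in WT (1876 by TMM), 276 in VegfbKO (1121) and 1427 over both genotypes (2317), and in VegfbKO 61.2% of calls were higher against 46.3%. limma voom called 2844 in WT. Between genotypes in diabetic rats the 6 calls became 38 by the likelihood ratio test, 30 by limma voom, 3 by library totals or with 10 libraries, and 10 and 12 with the covariates. With the deviation of Arntl, 7 were called between genotypes in controls (4) and 1 in the interaction (0).

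Depth was lowest in VegfbKO diabetic rat 1 (a total of 7220469) and WT control rat 2 (7314287).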

Other observations

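The rats are numbered 1 to 5 within each group in the sample titles, and what a number stands for is not given in the sources used here. Over the 4 rats of each number, the mean deviation of Arntl from its group mean, in log2 CPM, was 0.93 for number 1, 0.54 for number 2, -0.16 for number 3, -0.74 for number 4 and -0.56 for number 5. For Dbp it was -0.69, -0.34, 0.33, 0.51 and 0.20, and for Per2 it was -0.53, -0.33, 0.15, 0.49 and 0.22. The deviations of Per1 ran from -0.23 for number 1 to 0.23 for number 4, and those of Nr1d1 from -0.27 for number 5 to 0.17 for number 3. By group, the deviations of Arntl for numbers 1 to 5 were 1.04, 0.72, 0.65, -1.63 and -0.78 in WT control, 1.28, 0.07, 0.41, -0.73 and -1.04 in WT diabetic and 1.36, 1.05, -1.07, -0.38 and -0.97 in VegfbKO diabetic rats, so numbers 1 and 2 lay above 4 and 5 in these 3 groups. In VegfbKO control rats they were 0.02, 0.33, -0.64, -0.23 and 0.52, with number 5 the highest.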
